A study of Macaca mulatta with 24 samples.

Results

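The transcripts of 4 genes that mark inhibitory neurons of the neocortex, PVALB, GAD2, CRH and VIP, were followed across 4 frontal areas of the rhesus monkey (Macaca mulatta). They were taken as all probe sets whose single gene symbol is one of these names. These are 4 of the 14132 genes named alone by a probe set, and the rule found 5 of the 52766 probe sets that are not controls, namely 1 each for PVALB (MmugDNA.23641.1.S1_at), CRH (MmugDNA.11712.1.S1_at) and VIP (MmuSTS.2583.1.S1_at) and 2 for GAD2 (MmugDNA.34507.1.S1_at and MmugDNA.12677.1.S1_at). All 5 passed the filter on dim probe sets. The GAD2 probe sets are called the brighter and the dimmer one after their mean log2 intensities of 8.07 and 6.25, which reflect the probes as well as the transcript.

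The areas were the forelimb part of primary motor cortex (M1), dorsal premotor cortex (PMd), ventral premotor cortex (PMv) and prefrontal area 46 (A46). Each was cut from the left and right hemispheres of 3 untreated adolescents raised in group cages, males 1 and 2 aged 2.7 and 2.6 years and female 3 aged 2.7 years, which gave 24 arrays with 6 per area. All animals were killed by a pentobarbital overdose and perfused with heparinised saline, and the areas were located by their sulci and frozen after dissection on ice. The arrays held bulk tissue, in which fewer cells of a type and less RNA per cell cannot be told apart. The cells that held each transcript, PVALB included, were not identified.

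Cortical inhibitory neurons release GABA, which glutamic acid decarboxylase makes from glutamate. GAD2 encodes the isoform of that enzyme found mainly at nerve terminals, and GAD1 the isoform found throughout the cell. PVALB encodes parvalbumin, a calcium-binding protein of fast-spiking basket and chandelier cells, which inhibit the soma, proximal dendrites or initial axon of pyramidal neurons. VIP encodes vasoactive intestinal peptide, made by interneurons that, as known from rodents, mainly inhibit other interneurons. CRH encodes corticotropin-releasing hormone, a stress neuropeptide that in the rodent cortex is made largely by interneurons, many of them VIP cells.

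Neuronal transcripts were bright in every area. Over 8 measured pan-neuronal genes the mean log2 intensity of an array was 10.15 to 10.36 in M1, 10.14 to 10.39 in PMd, 9.86 to 10.37 in PMv and 10.18 to 10.35 in A46, so the areas overlapped. RNA integrity was read from actin, as the log2 intensity at the 3′ end minus that at the 5′ end, which was 0.94 ± 0.05 in M1, 0.99 ± 0.15 in PMd, 1.10 ± 0.14 in PMv and 1.08 ± 0.11 in A46 (SD, n = 3 animals). That of GAPDH was 0.96 ± 0.04, 0.95 ± 0.06, 0.92 ± 0.06 and 0.84 ± 0.05 in the same order. The part of RNA integrity in the results below was not tested.

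PVALB, GAD2 and CRH were highest in M1 and lowest in A46, and VIP ran the other way. An F test over the areas in limma (adjusted p under 0.05 called) passed for 4 of the 5 probe sets, against 6.53% of all 26383 probe sets tested. The members were chosen with earlier results of these data known, so the shares set side by side here are no test of enrichment. In M1 minus A46, 3 of the 5 rose (7.49% of all tested did) and VIP fell (5.36% of all did). The 6 M1 arrays did not overlap the 6 A46 arrays for 4 of the 5 probe sets, with 3 higher and 1 lower, against 4.78% and 3.89% of all tested. The dimmer GAD2 probe set was the one that did not pass. Over all probe sets tested the median log2 difference was -0.01 in M1 minus A46.

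The other pairs of areas held fewer calls. In PMd minus A46, 2 of the 5 probe sets rose and 0 fell, against 1.39% and 0.561% of all tested (1.95% in either direction), and the arrays of 1 lay fully above, against 1.48% above and 0.929% below over all. In PMv minus A46, 1 rose and 0 fell, against 0.629% and 0.599%, and 0 were free of overlap, against 0.762% above and 0.716% below. In M1 minus PMv, 1 rose, against 1.41% of all (1.87% were called in either direction), and 1 lay fully above, against 1.27% above and 0.485% below. In M1 minus PMd, 0 were called, against 0.171% higher and 0.159% lower, and 1 lay fully above, against 0.61% above and 0.606% below. In PMd minus PMv, 0 were called, against 0.00758% of all, and 0 were free of overlap, against 0.159% above and 0.0303% below. At an unadjusted p under 0.05 in limma, 4 of the 5 passed in M1 minus PMd, against 7.78% of all tested, and 1 of the 5 in PMd minus PMv, against 5.4% of all tested.

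**Figure D1:**
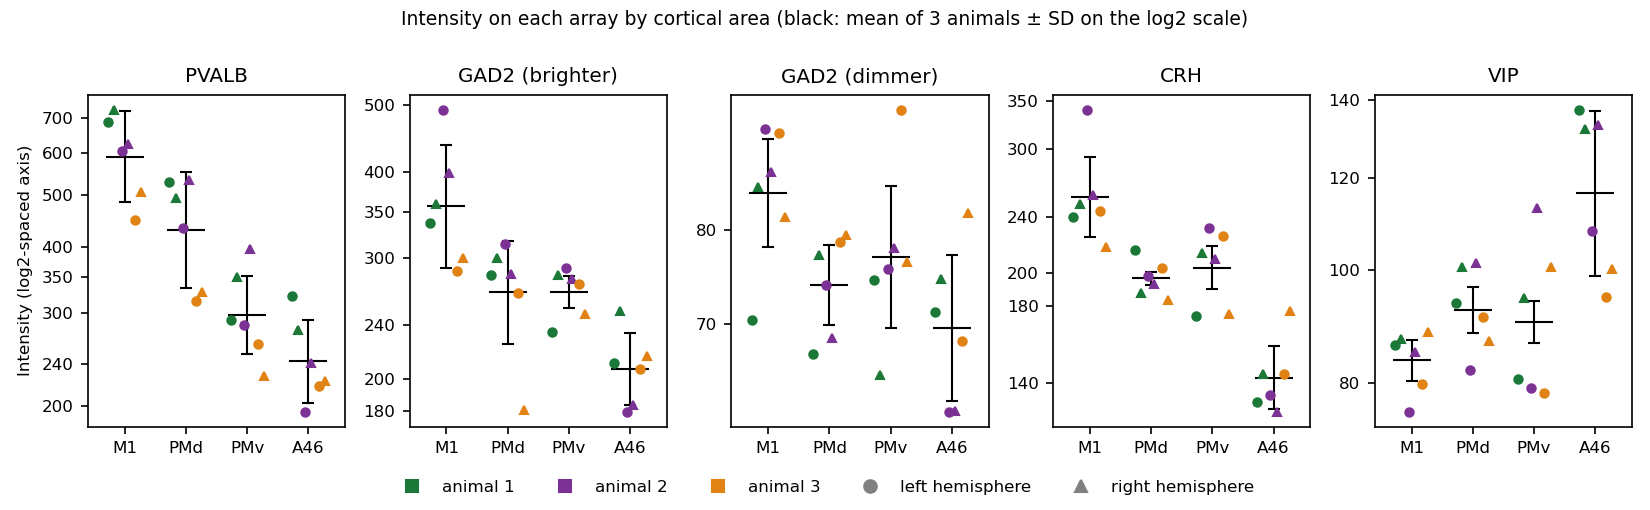
Intensity of each probe set on each of the 24 arrays (vertical axis, log2-spaced) in M1, PMd, PMv and A46, with animals by colour and hemispheres by symbol; black bars give the mean of 3 animals ± SD on the log2 scale. PVALB lies at 448.5 to 725.3 in M1 and at 195.4 to 322.5 in A46, the brighter GAD2 probe set and CRH are highest in M1, and VIP is highest in A46.

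PVALB had the steepest pattern of the 5. Its intensity was 448.5 to 725.3 in M1 (median 615), 316.5 to 534.4 in PMd (median 464.7), 228.3 to 396.1 in PMv (median 288) and 195.4 to 322.5 in A46 (median 232.3). The lowest M1 array was therefore above every PMv and A46 array, while neighbouring areas in the order overlapped. As log2 intensity the mean was 9.21 ± 0.29 in M1, 8.75 ± 0.36 in PMd, 8.22 ± 0.25 in PMv and 7.92 ± 0.26 in A46 (SD, n = 3 animals). Every animal showed the order M1, PMd, PMv, A46.

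PVALB was 2.43-fold higher in M1 than in A46, a log2 difference of 1.28 (SE 0.10, adjusted p = 1.03e-05, limma). The difference was 1.24, 1.5 and 1.11 in animals 1, 2 and 3. The means of both premotor areas lay between these ends. PMd was 1.77-fold above A46 (0.82, SE 0.10, adjusted p = 0.00198), although without animal 2 that call was lost (adjusted p = 0.115). M1 was 1.99-fold above PMv (0.99, SE 0.10, adjusted p = 0.000714).

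No step between neighbouring areas passed for PVALB. M1 minus PMd was 0.46 (95% interval 0.24 to 0.68, adjusted p = 0.0778), PMd minus PMv was 0.53 (0.32 to 0.75, adjusted p = 0.297) and PMv minus A46 was 0.29 (0.08 to 0.51, adjusted p = 0.155). Each step had the same sign in 3 of 3 animals. Without animal 3, PMd minus PMv (adjusted p = 0.0111) and PMv minus A46 (adjusted p = 0.0171) passed, where 1398 and 7010 of all 26383 probe sets did. Few probe sets of the array separated these areas, since 0.33% of all passed in M1 minus PMd, 0.00758% in PMd minus PMv and 1.23% in PMv minus A46.

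GAD2 was also highest in M1 and lowest in A46. The brighter probe set read 286.9 to 491.4 in M1 (median 348.4), 180.7 to 313.8 in PMd (median 283.7), 234.6 to 289.7 in PMv (median 277) and 179.6 to 251.3 in A46 (median 209.3). M1 arrays were all above A46 arrays, and both premotor areas overlapped each of them. Mean log2 intensity was 8.48 ± 0.30 in M1, 8.06 ± 0.25 in PMd, 8.06 ± 0.08 in PMv and 7.69 ± 0.17 in A46 (SD, n = 3 animals).

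This probe set was 1.72-fold higher in M1 than in A46 (log2 difference 0.78, SE 0.13, adjusted p = 0.00133, limma). Animal 2 showed 1.28, well above animal 1 at 0.60 and animal 3 at 0.47. Without animal 2 the difference was 0.53 and did not pass (adjusted p = 0.0686). PMd and PMv were nearly level with each other, with PMd minus PMv at -0.00 (95% interval -0.27 to 0.27, adjusted p = 0.999). Neither PMd minus A46 (0.37, adjusted p = 0.167) nor PMv minus A46 (0.37, adjusted p = 0.152) passed, and neither did M1 minus PMd (0.41, adjusted p = 0.236) or M1 minus PMv (0.41, adjusted p = 0.128). Without animal 3, PMd minus A46 (adjusted p = 0.011), PMv minus A46 (0.0228) and M1 minus PMv (0.0106) passed. Of all 26383 probe sets, 3055, 7010 and 3814 passed there.

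The dimmer GAD2 probe set read 70.38 to 92.45 in M1 (median 86.02), 67.08 to 79.46 in PMd (median 75.64), 65.11 to 94.95 in PMv (median 76.12) and 61.82 to 82.0 in A46 (median 69.78). All areas overlapped. Its M1 minus A46 difference of 0.28 (SE 0.09) had the sign of the brighter probe set in 3 of 3 animals, and its adjusted p of 0.0533 in limma missed the threshold. It passed without the intensity trend (adjusted p = 0.0492), after quantile normalisation (0.0472), in a fit on all 24 arrays (0.0334) and without the right A46 array of animal 3 (0.0287).

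GAD1 did not follow GAD2. In M1 minus A46 its log2 difference was -0.17 (SE 0.07, adjusted p = 0.158, limma), negative in 3 of 3 animals and in all 3 of its probe sets. GAD1 passed as lower in M1 without animal 3 (-0.22, adjusted p = 0.0147), where 5410 of all 26383 probe sets were called. The GABA-degrading enzymes ABAT (-0.06) and ALDH5A1 (-0.16) and the GABA transporter SLC6A11 (-0.15) did not pass either. Of 5 measured genes of GABA synthesis and uptake, 1 rose (GAD2) and 0 fell, and the list's median was -0.15 against -0.01 for all probe sets tested. The vesicular GABA transporter SLC32A1 is named by no probe set here.

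CRH was higher in all 3 motor areas than in A46. It read 218.1 to 340.3 in M1 (median 247.8), 183.5 to 216 in PMd (median 195.9), 174 to 232.1 in PMv (median 211.7) and 127.6 to 177.2 in A46 (median 139.5). M1 arrays lay above all PMd and all A46 arrays, and all PMd arrays lay above all A46 arrays. Mean log2 intensity was 8.0 ± 0.19 in M1, 7.62 ± 0.03 in PMd, 7.67 ± 0.10 in PMv and 7.15 ± 0.15 in A46 (SD, n = 3 animals).

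CRH was 1.80-fold higher in M1 than in A46 (log2 difference 0.85, SE 0.10, adjusted p = 0.00012, limma), with 0.83, 1.18 and 0.53 in animals 1, 2 and 3. It was also 1.38-fold higher in PMd (0.47, SE 0.10, adjusted p = 0.0305) and 1.43-fold higher in PMv (0.52, SE 0.10, adjusted p = 0.027) than in A46. In these comparisons 1.39% and 0.629% of all probe sets tested were called higher. Both premotor calls were lost without animal 1 (adjusted p = 0.306 in PMd and 0.178 in PMv) and without animal 2 (0.463 and 0.787). They were also lost with arrays centred on their medians (0.0652 and 0.0701), in left hemispheres alone (0.0667 and 0.0652) and in right hemispheres alone (0.155 and 0.134).

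M1 minus PMd (0.38, 95% interval 0.17 to 0.59, adjusted p = 0.124) and M1 minus PMv (0.33, 0.12 to 0.54, adjusted p = 0.115) did not pass for CRH. Both had a positive sign in 3 of 3 animals and passed without animal 3 (adjusted p = 0.0433 and 0.0159). Of all 26383 probe sets, 239 and 3814 passed there. PMd minus PMv was -0.05 (-0.26 to 0.16, adjusted p = 0.938).

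VIP was the gene with the opposite order. It read 75.6 to 88.45 in M1 (median 85.69), 82.08 to 101.4 in PMd (median 92.43), 78.46 to 113 in PMv (median 87.64) and 94.82 to 137.3 in A46 (median 120.1). All M1 arrays lay below all A46 arrays, and the premotor areas overlapped both. Mean log2 intensity was 6.39 ± 0.06 in M1, 6.53 ± 0.06 in PMd, 6.50 ± 0.06 in PMv and 6.86 ± 0.24 in A46 (SD, n = 3 animals).

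VIP fell by 0.48 on the log2 scale in M1 against A46 (SE 0.09, adjusted p = 0.00399, limma), to 0.72 of the A46 intensity. The difference was -0.63, -0.58 and -0.21 in animals 1, 2 and 3, and animal 3 had the lowest A46 level, at 97.5 against 134.7 in animal 1 and 120 in animal 2. The call was lost without animal 2 (adjusted p = 0.189). PMd minus A46 (-0.33, adjusted p = 0.0859) and PMv minus A46 (-0.37, adjusted p = 0.0703) did not pass, and both passed without animal 3 (0.00789 and 0.00208). Of all 26383 probe sets, 3055 and 7010 passed there. The motor areas did not separate from each other, with M1 minus PMd at -0.14 (95% interval -0.34 to 0.05), M1 minus PMv at -0.11 (-0.31 to 0.09) and PMd minus PMv at 0.03 (-0.16 to 0.23).

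**Figure D2:**
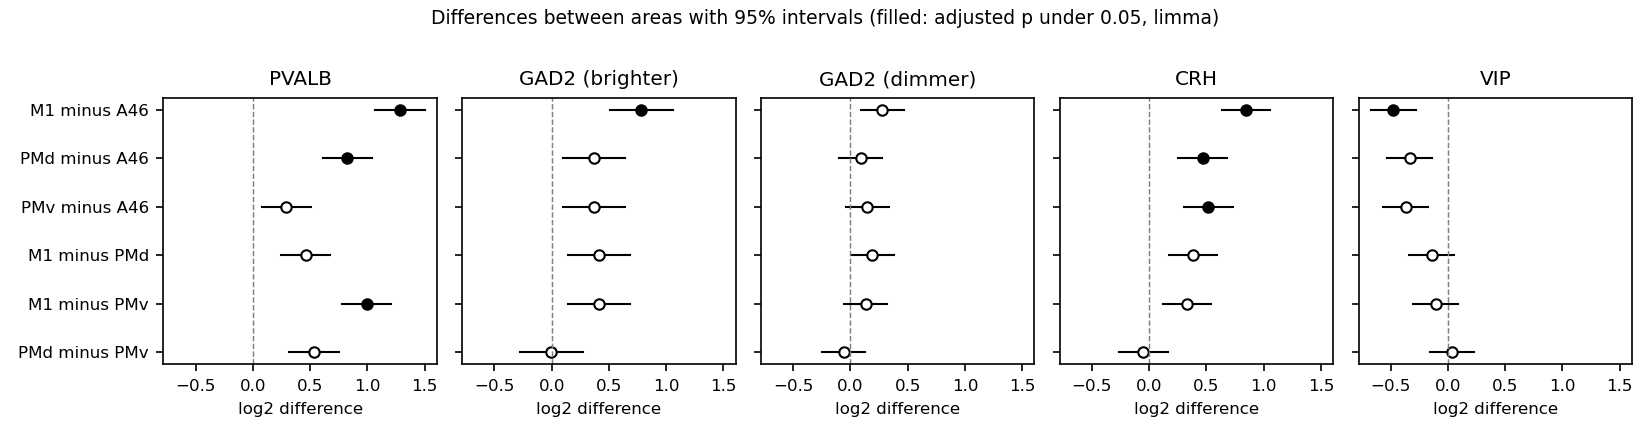
Log2 differences between pairs of areas (horizontal axis) with 95% intervals from limma over 3 animals, for each probe set; filled points have an adjusted p under 0.05. M1 minus A46 is filled for PVALB (1.28), the brighter GAD2 probe set (0.78), CRH (0.85) and VIP (-0.48), and open for the dimmer GAD2 probe set (0.28).

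The same question was asked of each probe set alone by permuting the area labels within every animal in all 13824 ways, an exact test on the sum of squares between areas. The exact permutation p was 0.00174 for PVALB, which is the smallest the design allows, 0.00521 for CRH and 0.00868 for both VIP and the brighter GAD2 probe set. The dimmer GAD2 probe set had an exact permutation p = 0.0451, and it did not pass in left hemispheres (0.0851) or right hemispheres (0.326) alone, without animal 2 (0.417) or without animal 3 (0.292). The other 4 passed in each hemisphere alone. With 1 animal left out the smallest possible exact permutation p is 0.0417, and the test then did not pass for the brighter GAD2 probe set without animal 1 (0.0833) or 2 (0.167), for CRH without animal 2 or 3 (0.0833 each), or for VIP without animal 1 (0.0833) or 3 (0.125). These 5 p-values are not adjusted. By limma's F test the adjusted p was 6.72e-05 for PVALB, 0.00116 for CRH, 0.0117 for the brighter GAD2 probe set, 0.0236 for VIP and 0.226 for the dimmer GAD2 probe set. PVALB ranked 17 of 26383 by that test. Without animal 2 only PVALB kept its F call (adjusted p = 0.00461), and CRH (0.112), the brighter GAD2 probe set (0.405) and VIP (0.738) did not pass. Without animal 1, VIP (0.259) and the brighter GAD2 probe set (0.057) did not pass.

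Animals differed in level as well as in the size of the area difference. Of the variance of PVALB over the 24 arrays, area took 77.6%, animal 14.7%, area by animal 3.57% and hemisphere 0.836%. Animal 3 had the lowest mean log2 PVALB intensity, 8.24 against 8.75 in animal 1 and 8.58 in animal 2, and was also lowest for the brighter GAD2 probe set (7.93 against 8.12 and 8.17) and for VIP (6.49 against 6.64 and 6.58). It was the highest for the dimmer GAD2 probe set (6.34 against 6.19 and 6.21). Animal 3 was the one female, so sex and animal cannot be told apart. CRH varied least with animal (1.2%) and most with area (79.1%).

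Against A46, the PVALB difference was larger than that of the brighter GAD2 probe set in M1 and PMd and smaller in PMv, within every animal. In M1 minus A46 its log2 difference exceeded that of the brighter GAD2 probe set in animal 1 (1.24 and 0.60), animal 2 (1.5 and 1.28) and animal 3 (1.11 and 0.47). In PMd minus A46 it did so as well (0.77 and 0.34, 1.15 and 0.72, 0.55 and 0.05). In PMv minus A46 PVALB was below the brighter GAD2 probe set in each animal (0.10 and 0.16, 0.629 and 0.648, 0.15 and 0.30). The gap between the genes itself was not tested.

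Left and right hemispheres were compared next. Limma called 0 of 26383 probe sets in left minus right, with 7.66% at an unadjusted p under 0.05, and 0 of the 5 probe sets. VIP came nearest, with a mean log2 intensity of 6.48 on the left and 6.66 on the right. Its left minus right difference was -0.18 (SE 0.05, unadjusted p = 0.00204, adjusted p = 0.429), and the left array was lower in 10 of 12 animal-by-area pairs. In PMv the left array was lower in 3 of 3 animals, by 0.23 to 0.51, and in M1 by 0.02 to 0.17. PVALB was -0.10 (95% interval -0.21 to 0.01), CRH 0.06 (-0.06 to 0.18), the brighter GAD2 probe set 0.03 (-0.09 to 0.15) and the dimmer one 0.00 (-0.11 to 0.11). The test of whether left minus right differed between areas called 0 of all probe sets (4.22% at an unadjusted p under 0.05) and had adjusted p = 0.999 for each of the 5.

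The M1 and A46 difference held in each hemisphere for 4 of the 5 probe sets. For the dimmer GAD2 probe set it was 0.33 on the left and 0.22 on the right and passed in neither (adjusted p = 0.152 and 0.224, limma). Both hemispheres came from the same 3 animals. In left and in right hemispheres alone the difference was 1.25 and 1.31 for PVALB, 0.87 and 0.70 for the brighter GAD2 probe set, 0.99 and 0.71 for CRH and -0.48 and -0.48 for VIP. All of these passed limma's threshold.

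**Figure D3:**
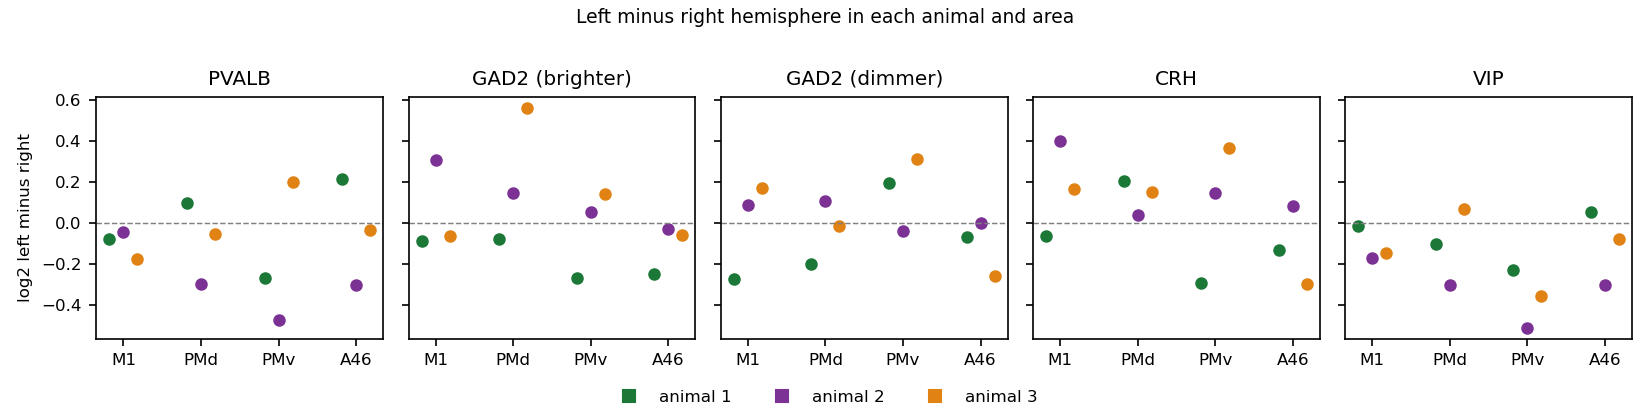
Log2 left minus right (vertical axis) for each animal (colour) in each area, 1 panel per probe set, with the dashed line at 0. VIP points lie below 0 in 10 of 12 pairs, with a mean of -0.18. PVALB points lie above 0 in 3 of 12 pairs, with a mean of -0.10, and the GAD2 and CRH points fall on both sides.

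Other genes of the same cell classes showed how far the pattern extended. Of 4 measured parvalbumin cell genes 2 rose in M1 against A46 and 0 fell, PVALB and KCNC1, a fast potassium channel subunit of fast-spiking cells (0.55, SE 0.07, adjusted p = 0.000329, limma). KCNC1 was also higher in PMd than in A46 (0.32, adjusted p = 0.0463), and it passed in M1 without any 1 animal. LHX6 (-0.01) and SOX6 (0.01), transcription factors of interneurons from the medial ganglionic eminence, did not pass. The list's median was 0.28 with PVALB and 0.01 without it.

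**Figure D4:**
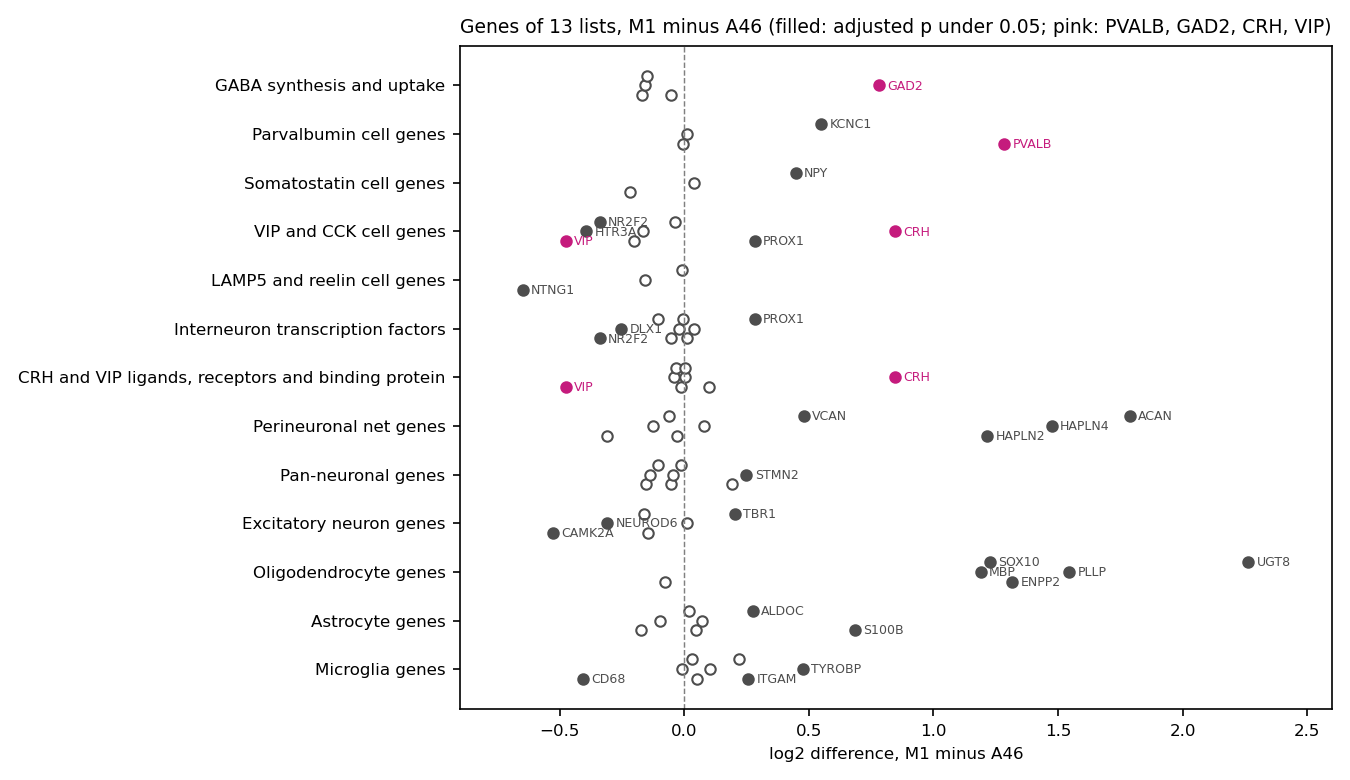
Log2 difference, M1 minus A46 (horizontal axis), of each measured gene of 13 lists (rows); filled points have an adjusted p under 0.05 in limma and pink points are the 4 genes described here. PVALB (1.28), GAD2 (0.78) and CRH (0.85) lie to the right of 0 and VIP (-0.48) to the left, with ACAN (1.79), HAPLN4 (1.47) and UGT8 (2.26) furthest to the right in their rows.

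The VIP and CCK cell genes moved both ways. Of 8 measured, 2 rose and 3 fell in M1 against A46, with a median of -0.18. VIP fell with the serotonin receptor subunit HTR3A (-0.39, adjusted p = 0.0304) and the transcription factor NR2F2 (-0.34, adjusted p = 0.00845), while CRH rose with the transcription factor PROX1 (0.28, adjusted p = 0.0351). The neuropeptide gene TAC3 (-0.17, adjusted p = 0.167) did not pass. Without animal 1, HTR3A (adjusted p = 0.093), NR2F2 (0.0897) and PROX1 (0.21) lost their calls, as they did without animal 2 (0.521, 0.297 and 0.486).

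Among 3 measured somatostatin cell genes, neuropeptide Y (NPY) rose in M1 (0.45, adjusted p = 0.0418), with that sign in 2 of 3 animals, and was lost without animal 1 (0.144) and without animal 2 (0.668). Nitric oxide synthase NOS1 (0.04) and the synaptic protein ELFN1 (-0.22, adjusted p = 0.0774) did not pass. Among 3 measured LAMP5 and reelin cell genes, the netrin NTNG1, which pyramidal neurons and thalamic axons also express, fell (-0.65, adjusted p = 0.0017, and 0.0854 without animal 2), and LAMP5 (-0.01) and KIT (-0.16) did not pass. SST, CALB2, CCK and RELN are named by no probe set here.

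Of 9 measured interneuron transcription factors 1 rose and 2 fell in M1, with a median of -0.02. PROX1 and NR2F2 are given above, DLX1 fell (-0.25, adjusted p = 0.029), and SATB1 (-0.11) did not pass. DLX1 did not pass without animal 1 (adjusted p = 0.164) or without animal 2 (0.366).

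The other measured genes of the CRH and VIP pathways were not called, and neither VIPR1 nor VIPR2 was tested. Of 8 measured genes of these pathways CRH rose and VIP fell, and the other 6 did not pass in M1 minus A46, with a median of -0.00 over all 8. CRHBP, which binds and sequesters CRH, had a log2 difference of 0.00. That of the CRH receptor CRHR1 was -0.03 and that of the CRH-family ligand UCN3 was -0.04. The PACAP receptor ADCYAP1R1 had a difference of 0.10, which 1 of its 3 probe sets shared in sign. With the probe sets of a gene averaged, 2 genes of the list were called lower in place of 1. VIPR2, a VIP receptor, was below the filter, and the VIP receptor VIPR1 is named by no probe set here. The SE of these 6 differences was 0.07 to 0.10.

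Perineuronal nets are the matrix that wraps many parvalbumin cells. Of 9 measured net genes 4 rose in M1 against A46 and 0 fell. ACAN, the aggrecan core protein, rose by 1.79 (SE 0.17, adjusted p = 3.8e-05) in all 3 of its probe sets. The link protein HAPLN4 rose by 1.47 (SE 0.10, adjusted p = 3.49e-06), the link protein HAPLN2, known from myelinated axons at nodes of Ranvier, by 1.22 (SE 0.13, adjusted p = 6.4e-05) and VCAN by 0.48 (SE 0.11, adjusted p = 0.0098). VCAN did not pass without animal 1 (0.0542) or without animal 2 (0.341). The first 3 of these were also higher in PMd and in PMv than in A46. HAPLN4 rose by 1.18 and 0.72, ACAN by 1.00 and 0.96 and HAPLN2 by 0.65 and 0.65. In PMd minus A46, 2 of the 3 ACAN probe sets had that sign. The list's median was 0.08.

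Markers of other cell classes were read on the same arrays. Of 6 measured oligodendrocyte genes 5 rose in M1 against A46 and 0 fell, with a median of 1.27, led by UGT8 (2.26), PLLP (1.55), ENPP2 (1.32) and SOX10 (1.23). The myelin enzyme gene CNP, the one measured gene of the list that was not called and chosen for mention after its value was seen, had a difference of -0.08 (adjusted p = 0.576) with that sign in both of its probe sets. MAG, MOG and MOBP are named by no probe set here. The mean log2 intensity of the 6 genes was 10.39 to 11.02 in M1, 9.70 to 10.36 in PMd, 9.74 to 10.19 in PMv and 9.13 to 9.66 in A46, so M1 and A46 arrays did not overlap. The 5 genes that rose had the direction of PVALB, GAD2 and CRH, and their part in those results was not tested.

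Neuronal markers outside the inhibitory classes held calls in both directions. Of 8 pan-neuronal genes 1 rose, STMN2 (0.25, adjusted p = 0.0135), with a list median of -0.05, and SYT1 (-0.14), SNCB (-0.15) and ENO2 (0.19) did not pass. Of 6 excitatory neuron genes TBR1 rose (0.20, adjusted p = 0.0391) and CAMK2A (-0.53, adjusted p = 0.023) and NEUROD6 (-0.31, adjusted p = 0.028) fell, with a median of -0.15, and NRGN (-0.15) did not pass. Without animal 2, STMN2 (0.255), TBR1 (0.628), CAMK2A (0.285) and NEUROD6 (0.438) did not pass, and without animal 1 neither did they (0.148, 0.0975, 0.163 and 0.17). Of 7 astrocyte genes S100B (0.69), which oligodendrocytes also express, and ALDOC (0.27) rose, both lost without animal 2 (0.128 and 0.221). Of 8 microglia genes TYROBP (0.48) and ITGAM (0.26) rose and CD68 (-0.41) fell, all lost without animal 2 (0.406, 0.459 and 0.204) and without animal 1 (0.0864, 0.0798 and 0.0817).

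The genes whose area pattern was most like each probe set were taken from 10042 other genes by Pearson's r over the 12 animal-by-area means, after each animal's own mean was subtracted. The means share 3 animals, so r is a description, and in bulk tissue it does not place genes in the same cells. For PVALB these were LOC701156 (r = 0.986), the synaptic vesicle protein SV2C (0.986), the small GTPase RHOQ (0.978), CDR2L (0.978) and the RNA helicase DDX24 (0.975). SV2C had a log2 difference of 1.26 in M1 minus A46, close to the 1.28 of PVALB. For CRH they were the oligodendrocyte transcription factor SOX10 (0.995), the integrin ITGA2 (0.992), the neuregulin receptor ERBB3 (0.992), the small heat shock protein CRYAB (0.992) and PLEKHB1 (0.992).

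For the brighter GAD2 probe set the list held DAAM2, a Wnt pathway formin (0.996), PACS2 (0.992), EEIG1 (0.991), PAQR6 (0.989) and PLEKHG3 (0.985), and for the dimmer one GLTP, a glycolipid transfer protein (0.968), WASF2 (0.955), PACS2 (0.952), ZNF568 (0.952) and ERAP1 (0.950). PACS2 appeared for both. For VIP the list held the proton pump accessory subunit ATP6AP1 (0.985), the adhesion protein TLN2 (0.974), the syntaxin STX1A of synaptic release (0.973), the inositol phosphate kinase IP6K1 (0.972) and LRTM2 (0.971). All 5 of these were lower in M1 than in A46, by 0.19 to 0.71 on the log2 scale. By the same measure the brighter and dimmer GAD2 probe sets had r = 0.922 with each other, CRH and the brighter GAD2 probe set 0.948, PVALB and the brighter GAD2 probe set 0.872, PVALB and CRH 0.856, and VIP and CRH -0.908.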

How the data were processed

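Each cortical sample gave biotin-labelled material for 1 Affymetrix rhesus array with a single colour, per the labels' protocols. The deposited values are intensities on a linear scale, which the authors made with RMA, a multi-array background correction, quantile scaling and probe summary, per the submitters' processing notes. Neither its version nor the set of arrays scaled together was given in those sources. Since RMA scales arrays towards a common distribution, a difference is relative to the rest of the array. The deposited arrays did not share one exactly, with medians of 47.9 to 51.6. Arrays have no read depth, and 3 animals limit the precision.

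Intensities were converted to log2. Controls (99 probe sets) were removed, and 26383 probe sets with a mean at or above the median of all (log2 5.62, intensity 49.3) were tested. Both hemispheres of an animal and area were averaged. Limma (version 3.58.1, R 4.3.3) was fitted to the 12 means with area and animal as terms and an intensity trend (6 residual and 6.98 prior degrees of freedom), two-sided, with Benjamini-Hochberg adjustment over all probe sets of a contrast. Adjusted p-values of single genes all come from limma. Left minus right used 24 arrays with the animal-by-area pair as a block. Pairs from 1 animal were treated as independent there, so those p-values rest on more units than animals. The method was tested on simulated data.

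The animals pair the samples, since every area came from the same 3 animals. Deviations from the area means correlated at 0.207 to 0.850 in the 18 pairs within animals. No array copied another (at most 126 of 52865 values were identical). Gene names come from the platform annotation. All 5 probe sets matched a current entry with the same symbol by Entrez ID. Coordinates are left out because the table states no build. For list genes with several probe sets the brightest stands for the gene. The text names all 5 probe sets, up to 4 further genes per list by the smallest p of the F test, and the 5 genes most like each probe set. The members and lists were chosen with earlier results of these data known. Alternatives covered the animal block, each animal left out, the filter, the trend, scaling, hemispheres and the unit of the fit.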

Additional observations from a re-analysis of the deposited data

Results flagged for a closer look

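In 20 groups of 6 arrays (5 probe sets in 4 areas), 2 held an array far from the others. Chance flags about 1 in 20 groups of 6 independent values. The 6 arrays here are 2 hemispheres of each of 3 animals, so that rate may not hold. The right PMd array of animal 3 read 180.7 for the brighter GAD2 probe set, against 266.4 for the next lowest PMd array. On the log2 scale that gap was 0.703 of the group's range. The right A46 array of animal 3 read 177.2 for CRH, against 144.2 for the next highest A46 array, a gap of 0.628 of the log2 range. With either array left out, the 5 probe sets kept their calls in all 6 pairs of areas, except that the dimmer GAD2 probe set passed in M1 minus A46 without the right A46 array (0.32, adjusted p = 0.0287, limma).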

How the results depend on the processing

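The 30 area differences of the 5 probe sets were recomputed under 14 alternatives, 2 of them (each array named above left out) and the leaving out of animals for the gene lists chosen after seeing the data. Of the 408 resulting values 373 kept their side of the threshold, 17 lost a call, 18 gained one and 0 reversed a called direction. Some small uncalled differences changed sign, as VIP did in M1 minus PMv (-0.109 as reported and 0.0191 in left hemispheres). The count of the 5 probe sets called was 4 for any area difference, 4 in M1 minus A46, 2 in PMd minus A46, 1 in PMv minus A46, 0 in M1 minus PMd, 1 in M1 minus PMv and 0 in PMd minus PMv. Leaving out each animal gave 1 to 4 for any area difference, 2 to 4 in M1 minus A46, 0 to 4 in PMd minus A46, 0 to 4 in PMv minus A46, 0 to 1 in M1 minus PMd, 1 to 3 in M1 minus PMv and 0 to 1 in PMd minus PMv, the lowest counts without animal 2 and the highest without animal 3. With no replicate block (animals unpaired) the counts were 2 for any area difference, 0 in PMd minus A46, 0 in PMv minus A46 and 0 in M1 minus PMv. PMd minus A46 and PMv minus A46 gave 1 and 0 with arrays centred on their medians, in left hemispheres and in right hemispheres. Quantile normalisation gave 1 in M1 minus PMd, and the fit on 24 arrays gave 2 in PMv minus A46, 1 in M1 minus PMd and 1 in PMd minus PMv. VIP lost its F call with median centring (adjusted p = 0.0647) and in left hemispheres (0.0792). The dimmer GAD2 and VIP probe sets lay below the stricter filter, so they have no value there.

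Over all probe sets the calls for any area difference numbered 1723, and 609, 129 and 7754 without animals 1, 2 and 3, 288 with no replicate block, 929 with median centring, 526 in left hemispheres and 3084 on 24 arrays. For M1 minus A46 the 3391 calls became 1648, 403 and 5410 without animals 1, 2 and 3, 1056 with no replicate block, 2151 with median centring and 1263 in left hemispheres. Over the same alternatives the calls ranged from 8 to 3055 in PMd minus A46 (515 as reported), 1 to 7010 in PMv minus A46 (324), 0 to 436 in M1 minus PMd (87), 4 to 3814 in M1 minus PMv (494) and 0 to 1398 in PMd minus PMv (2). The split of M1 minus A46 was 1976 higher and 1415 lower, and 1483 and 668 with median centring. In PMd minus A46 it was 367 and 148, and 564 and 395 after quantile normalisation, and in M1 minus PMv 371 and 123, and 405 and 397. In M1 minus PMd it was 45 and 42, and 1 and 3 with median centring. Left minus right had 38 calls on per-animal means, none of them among the 5 probe sets. With the probe sets of a gene averaged, TBR1's list held 0 genes called higher in M1 and the transcription factor list 1 called lower. The cause of these shifts was not tested.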
